A study of Mus musculus with 19 samples.

Results

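The 10 genes described here, Pecam1, Cdh5, Esam, Emcn, Kdr, Flt1, Tie1, Tek, Eng and Vwf, are widely used to mark endothelial cells, the cells that line blood vessels. They were taken by gene name from a table of 56066 genes measured by RNA sequencing of mouse hearts, and each name was found. All 10 passed the filter for testing, at least 1 TPM (a unit of transcript abundance normalized for gene length and for the library total) in at least 3 of 18 libraries, which kept 14812 genes, and the lowest value of any of them in any of the 18 libraries was 10.5 TPM. The study set hearts in which PDK1 was conditionally deleted (cKO) against wild-type (WT) hearts at several postnatal ages. The groups were P7 cKO (libraries 69, 75 and 82), P7 WT (1, 3, 72, 76 and 77), P21 cKO (55, 59 and 64), P21 WT (2, 3, 57 and 60) and P1 WT (1, 2 and 3), where P gives the postnatal day. The labels name heart as the tissue of every group. They give no Cre driver, no floxed allele of the controls, no sex, no strain apart from B6 in the titles of P21 WT libraries 2 and 3, and no statement that each library came from its own animal, so p-values measure the spread between libraries, which may be technical. Libraries 1 to 3 of each WT age have a letter code in their titles and the other titles are plain numbers. This title style was a term of the model, and sex was not. Ddx3y, a Y-linked gene, ranged from 0 to 16.5 TPM in P7 cKO and from 0 to 18.5 TPM in P7 WT. It ranged from 0 to 20.3 TPM in P21 cKO, from 0 to 17.8 TPM in P21 WT and from 0 to 3.77 TPM in P1 WT. Another P21 library, number 63, is labelled cKO by genotype while its title lacks the KO that marks every other cKO title, and it is in none of the groups.

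TPM keep no sequencing depth, so the depth behind each value is unknown. The number of genes at 1 TPM or more ranged over the libraries from 12422 to 13797. The name PDK1 is used for the AKT-activating kinase encoded by Pdpk1 and for the pyruvate dehydrogenase kinase encoded by Pdk1, and the labels do not say which was deleted. Pdpk1 stood between 4.95 and 5.55 TPM in P21 cKO, against 6.17 to 7.65 TPM in P21 WT, and between 7.95 and 8.09 TPM in P7 cKO, against 7.96 to 11.9 TPM in P7 WT. Pdk1 stood between 31.6 and 37.7 TPM in P21 cKO, against 24.3 to 29.4 TPM in P21 WT. The median of all 14812 genes also moved, by 0.22 on the log2 scale between P21 cKO and P21 WT, by -0.47 between P21 WT and P7 WT and by -0.24 between P21 cKO and P7 cKO, so changes of the 10 genes are given as measured, relative to this median gene, and again after median-ratio scaling, which divides each library by a size factor (0.71 to 1.22) and brings the median gene to between -0.02 and 0.01 in these comparisons. In RNA of whole tissue, fewer endothelial cells and less RNA per endothelial cell cannot be told apart.

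Endothelial cells of the heart form its arteries, veins and dense capillary bed, and a related layer, the endocardium, lines its chambers. Their identity rests on cell junctions, on receptors that read growth factors made by neighbouring cells, and on ETS family transcription factors that act at many endothelial genes. Pecam1 encodes an adhesion molecule of endothelial junctions, Cdh5 the adhesive protein VE-cadherin, Esam an adhesion molecule of tight junctions, and Emcn the sialomucin endomucin, typical of veins and capillaries. Kdr encodes VEGFR2, the main signalling receptor of VEGF-A, and Flt1 encodes VEGFR1, which binds VEGF-A tightly and signals weakly. Tek encodes TIE2, the receptor of the angiopoietins, and Tie1 its orphan relative. Eng encodes endoglin, a co-receptor of the endothelial ALK1 pathway. Vwf encodes von Willebrand factor, a clotting protein stored in Weibel-Palade bodies, and it is also made by megakaryocytes. On mm10 (GENCODE M21) the adhesion genes lie at chr11:106654217-106750628 (Pecam1), chr8:104101625-104144511 (Cdh5), chr9:37528078-37538319 (Esam) and chr3:137341067-137432185 (Emcn). The receptor genes lie at chr5:75932827-75978458 (Kdr), chr5:147561604-147726011 (Flt1), chr4:118471191-118490061 (Tie1), chr4:94739289-94874976 (Tek) and chr2:32646595-32682669 (Eng), and Vwf at chr6:125546774-125686679.

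The promoters of the 4 receptor tyrosine kinases are printed because their levels carry much of what follows, and because Kdr and Flt1, which share a ligand, stood in different ratios in different libraries. RefSeq windows on GRCm38.p6, from 250 bases before to 50 bases after the annotated start, were matched for 6 of the 10 genes, Emcn, Eng, Flt1, Kdr, Tek and Tie1. Flt1 lies at chr5:147725962-147726261 on the minus strand, Kdr at chr5:75978406-75978705 on the minus strand, Tie1 at chr4:118489800-118490099 on the minus strand and Tek at chr4:94739039-94739338 on the plus strand. Each is written 5′ to 3′ on its own strand, and capitals mark GGAA or its reverse complement TTCC, the core of ETS factor sites.

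Flt1: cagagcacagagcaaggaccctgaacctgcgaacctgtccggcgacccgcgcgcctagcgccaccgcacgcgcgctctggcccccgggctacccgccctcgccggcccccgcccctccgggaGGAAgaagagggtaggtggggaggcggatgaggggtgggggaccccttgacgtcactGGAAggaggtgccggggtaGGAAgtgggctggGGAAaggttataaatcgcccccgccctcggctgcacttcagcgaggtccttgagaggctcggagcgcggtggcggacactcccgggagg
Kdr: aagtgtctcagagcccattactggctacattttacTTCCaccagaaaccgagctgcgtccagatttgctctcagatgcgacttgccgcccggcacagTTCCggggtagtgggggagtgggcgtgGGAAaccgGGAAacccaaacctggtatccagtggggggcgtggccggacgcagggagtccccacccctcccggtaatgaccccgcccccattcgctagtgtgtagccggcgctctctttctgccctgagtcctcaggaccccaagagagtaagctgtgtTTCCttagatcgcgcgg
Tie1: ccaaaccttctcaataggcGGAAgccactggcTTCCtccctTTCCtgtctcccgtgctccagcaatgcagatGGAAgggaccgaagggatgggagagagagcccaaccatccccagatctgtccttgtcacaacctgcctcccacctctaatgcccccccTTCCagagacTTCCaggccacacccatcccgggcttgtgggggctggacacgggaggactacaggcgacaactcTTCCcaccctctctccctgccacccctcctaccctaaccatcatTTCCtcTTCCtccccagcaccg
Tek: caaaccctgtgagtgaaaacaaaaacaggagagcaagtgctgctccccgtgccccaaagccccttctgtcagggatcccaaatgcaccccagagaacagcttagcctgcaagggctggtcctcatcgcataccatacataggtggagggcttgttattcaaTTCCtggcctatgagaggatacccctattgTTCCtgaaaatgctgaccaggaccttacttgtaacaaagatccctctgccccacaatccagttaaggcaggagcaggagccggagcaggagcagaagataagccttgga

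The core GGAA was found, on either strand, 9 times in the Tie1 window, 5 times in Kdr, 4 times in Flt1 and 2 times in Tek, against a median of 3 over 32851 mouse windows of the same length, 96% of which hold at least 1. In the windows of the other two matched genes it was found 6 times (Emcn) and 4 times (Eng). The longer AGGAAG, which contains the core, was found 2 times each in Tie1, Flt1, Emcn and Eng and was not found in Kdr and Tek, and 35.4% of all windows hold it. TATAAA was found in Flt1, 31 bases before the start, and in none of the other 5, and 13.6% of all windows hold it. GATAAG was found in Tek and in none of the other 5, and 7.44% of all windows hold it. The Flt1 window was 70.7% G and C with 29 CpG dinucleotides and the Kdr window 60.7% with 19. Tie1 had 60.3% with 7 and Tek 52% with 3, against medians of 52.7% and 7 over all windows. Motifs were searched on both strands, and a match is a description of the letters.

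All 10 genes were well expressed in heart, and TPM are per length, so levels can be compared between genes. Cdh5 averaged 161 ± 8.46 TPM in P7 cKO (SD, n = 3), against 157 ± 7 TPM in P7 WT (SD, n = 5), and it had the highest mean of the 10 in all 5 groups. Flt1 had the lowest mean in all 5 groups, with 18 ± 0.286 TPM in P7 cKO, against 18.1 ± 0.969 TPM in P7 WT. Summed over the 10 genes, the level was 551 ± 22.9 TPM in P1 WT (SD, n = 3). At P7 the cKO sum was 680 ± 24.5 TPM (n = 3), against a WT sum of 652 ± 20.4 TPM (n = 5). At P21 the cKO sum was 514 ± 11.4 TPM (n = 3), against a WT sum of 369 ± 33.3 TPM (n = 4). After median-ratio scaling the sums were 473 ± 16.3 in P1 WT, 622 ± 12.4 in P7 cKO, 574 ± 32.3 in P7 WT, 572 ± 21.1 in P21 cKO and 479 ± 15.9 in P21 WT. The P21 WT sum was thus the lowest on the deposited scale and lay beside the P1 WT sum on the scaled one.

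**Figure D1:**
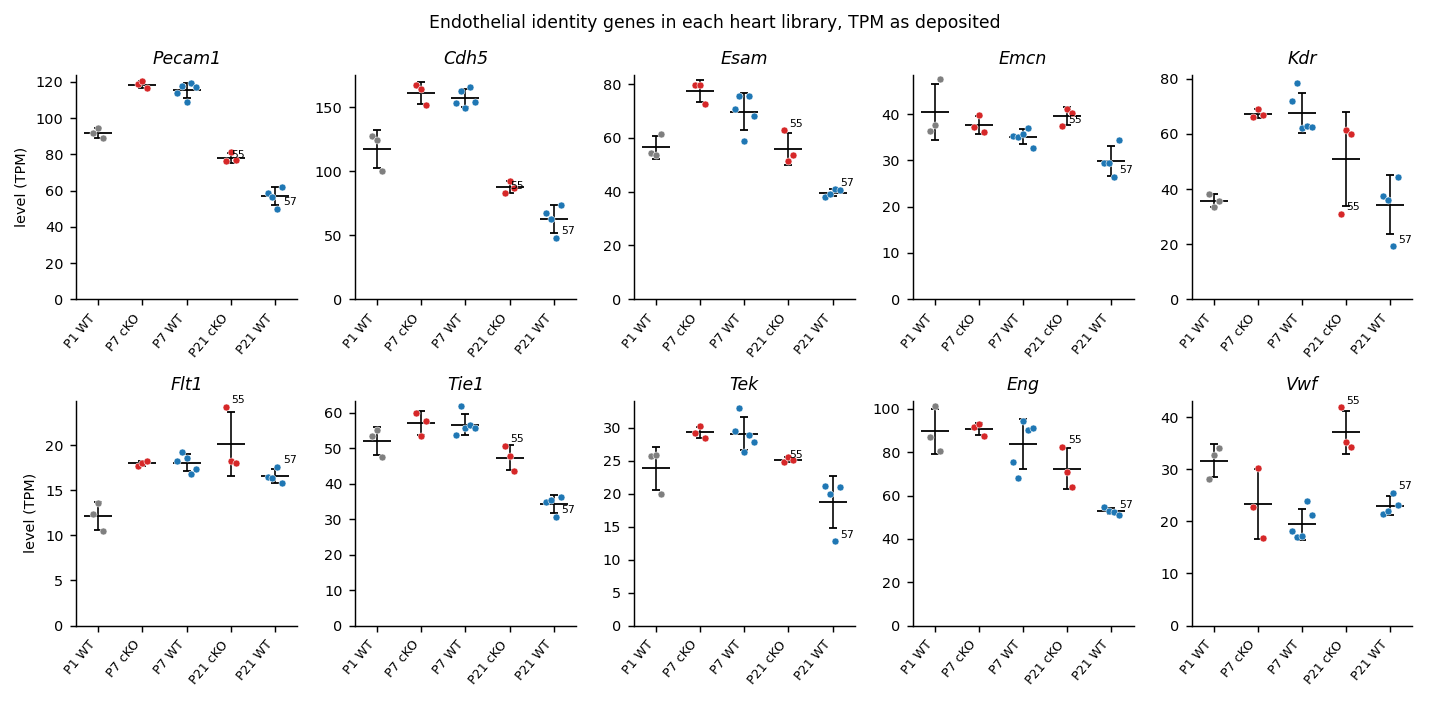
Levels of the 10 endothelial identity genes (vertical axes, TPM as deposited, from 0) in each of the 18 libraries, by group (horizontal axis). Points are libraries, red for cKO, blue for WT at P7 and P21 and grey for P1 WT, bars are mean and SD, and libraries 55 and 57 are numbered. Pecam1, Cdh5, Kdr and Tek stand highest at P7, Vwf has its lowest mean in P7 WT, and the P21 cKO points lie above all P21 WT points for every gene but Kdr.

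The order of the groups differed between genes. Pecam1, on the deposited scale, ran from P7 cKO (119 TPM) and P7 WT (115 TPM), whose libraries overlapped, through P1 WT (91.8 TPM) and P21 cKO (78.1 TPM) to P21 WT (56.9 TPM), with no overlap between neighbours below P7. Cdh5 had the same order, with both P7 groups overlapping and each later neighbour apart. Tie1 and Esam had this order of means too, with overlap between all neighbours except P21 cKO and P21 WT. Eng had P7 cKO (90.7 TPM), P1 WT (89.6 TPM), P7 WT (83.9 TPM) and P21 cKO (72.5 TPM) with each neighbour overlapping, and P21 WT (52.9 TPM) apart below them. Tek ran from both P7 groups, 29.3 TPM in cKO against 29.1 TPM in WT, to P21 cKO (25.2 TPM), apart below them, and then to P1 WT (23.8 TPM) and P21 WT (18.7 TPM) with overlap. Kdr stood highest in both P7 groups, 67.4 TPM in cKO against 67.6 TPM in WT, with P21 cKO (50.8 TPM), P1 WT (35.8 TPM) and P21 WT (34.3 TPM) below them and overlapping in that order. Flt1 ran from P21 cKO (20.15 TPM), which overlapped both P7 groups, to P21 WT (16.6 TPM), which overlapped P7 WT and not P7 cKO, and then to P1 WT (12.1 TPM), apart below it. Emcn had the least separation, with overlap between all neighbours from P1 WT (40.4 TPM) to P21 WT (29.9 TPM). Vwf was highest in P21 cKO (37.1 TPM), apart from P1 WT (31.6 TPM) below it, and P7 cKO (23.3 TPM), P21 WT (23 TPM) and P7 WT (19.5 TPM) overlapped.

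In the first postnatal week of WT hearts Kdr, Flt1, Tek, Cdh5, Pecam1 and Esam rose and Vwf fell, and Tie1, Emcn and Eng did not pass the test. Of the 10 genes, 6 were called higher in P7 WT than in P1 WT and 1 lower (limma, Benjamini-Hochberg adjusted p under 0.05), where 13.8% of all genes tested were called higher and 14.7% lower. After scaling 5 were higher and 1 lower, against 14.8% and 16.1% of all genes. Every P7 library lay above every P1 library for 5 of the 10 and below for 1 on both scales, as for 13.8% and 17.1% of all genes as deposited and 16.4% and 17.2% scaled. Kdr stood at 71.8, 78.6, 62.2, 62.8 and 62.5 TPM in P7 WT, against 38.4, 33.5 and 35.6 TPM in P1 WT. The groups did not overlap, and Kdr rose by 1.07 ± 0.25 on the log2 scale (SE, limma adjusted p = 0.00505), to a mean 1.89 times that of P1 WT. Flt1 stood at 18.3, 19.3, 18.6, 16.9 and 17.3 TPM in P7 WT, against 12.4, 13.5 and 10.5 TPM in P1 WT, again with no overlap, and rose by 0.56 ± 0.11 (adjusted p = 0.00132). Both VEGF receptors therefore rose together in this week.

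Among junction genes, Cdh5 rose by 0.46 ± 0.13 (limma adjusted p = 0.0125) and Pecam1 by 0.34 ± 0.07 (adjusted p = 0.00206), with every P7 WT library above every P1 WT library for both. Esam rose by 0.31 ± 0.10 (adjusted p = 0.0257), a call lost after scaling (log2 change 0.30, adjusted p = 0.0544). Tek rose by 0.42 ± 0.14 (adjusted p = 0.0292), while Tie1 had a log2 change of 0.15 ± 0.08 (adjusted p = 0.187) with overlapping libraries. Emcn (-0.20, adjusted p = 0.173) and Eng (-0.20, adjusted p = 0.196) did not pass. Vwf stood at 18.2, 16.9, 17.2, 23.9 and 21.2 TPM in P7 WT, against 28.1, 32.7 and 34 TPM in P1 WT. Every P7 library lay below every P1 library, and Vwf fell by 0.79 on the log2 scale (SE 0.16, adjusted p = 0.00225). In this comparison the median gene moved by less than 0.01, and scaled values were within 0.02 of these for all 10 genes. All 3 P1 libraries have letter-coded titles, so a difference between title styles enters this comparison through the model's style term and through the P7 and P21 WT libraries of both styles. In P7 WT the title styles did not overlap for 3 of the 10 genes as deposited. Eng was lower in the letter-coded libraries (68 to 75.6 TPM, against 90.5 to 94.4 TPM in the plain-number ones), and Kdr and Tek were higher. Eng averaged 89.6 TPM in P1 WT.

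Between P7 and P21 the WT levels of most of the 10 genes fell, and so did the median gene. On the deposited scale 8 were called lower and 0 higher in P21 WT than in P7 WT, where 64.4% of all genes tested were called lower and 8.1% higher. Scaled, 4 were called lower (Cdh5, Pecam1, Kdr and Esam) and 3 higher (Vwf, Flt1 and Emcn), where 27.4% of all genes were called lower and 27% higher. A count of 8 lower on the deposited scale is read against that high share of all genes. Every P21 WT library lay below every P7 WT library for 7 of the 10 and above for 0, as for 54.1% and 6.13% of all genes, and after scaling below for 3 and above for 3, as for 22.1% and 22%. Cdh5 stood at 67.1, 62.7, 48 and 73.8 TPM in P21 WT, against 153, 163, 149, 166 and 154 TPM in P7 WT. No libraries overlapped, and Cdh5 fell by 1.33 on the log2 scale (SE 0.10, adjusted p = 1.65e-08), by 0.86 relative to the median gene and by 0.76 after scaling (adjusted p = 5.34e-07). Pecam1 stood at 58.9, 56.5, 50.1 and 62 TPM in P21 WT, against 114, 118, 109, 119 and 117 TPM in P7 WT, also with no overlap. It fell by 1.01 (SE 0.06, adjusted p = 5.01e-10), and by 0.45 after scaling (adjusted p = 9.71e-07).

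Kdr stood at 37.6, 35.9, 19.2 and 44.4 TPM in P21 WT, below the P7 WT values given above in every library. It fell by 1.04 (SE 0.20, limma adjusted p = 0.000239), and by 0.48 after scaling (adjusted p = 0.0336). The scaled call of Kdr was lost in 7 of 20 alternatives (-0.67 to -0.26, adjusted p up to 0.2), which were the plain-number libraries alone and leaving out any 1 of P21 WT libraries 3 and 57 and P7 WT libraries 3, 72, 76 and 77. That of Esam was lost in 8 of 20 (adjusted p up to 0.194). Flt1, the other VEGF-A receptor, stood at 16.5, 16.4, 17.6 and 15.8 TPM in P21 WT, overlapping P7 WT. Its log2 change was -0.12 (adjusted p = 0.226) on the deposited scale and turned to 0.42 after scaling (adjusted p = 0.00196), where every P21 WT library lay above every P7 WT library. Tek fell by 0.65 and Tie1 by 0.71 on the deposited scale (adjusted p = 6.35e-05 and 1.9e-07). After scaling their changes were -0.11 and -0.15 (adjusted p = 0.295 and 0.0713), so neither Tek nor Tie1 was called apart from the shift of the median gene. Eng likewise had -0.63 (adjusted p = 1.35e-05) as deposited and -0.06 (adjusted p = 0.632) scaled.

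Vwf moved the other way. It stood at 21.4, 21.9, 25.5 and 23.1 TPM in P21 WT, overlapping the P7 WT range, with a log2 change of 0.26 (adjusted p = 0.0946) on the deposited scale. After scaling it rose by 0.80 ± 0.14 (adjusted p = 0.000169), with every P21 WT library above every P7 WT library. Emcn stood at 29.4, 29.4, 26.4 and 34.4 TPM in P21 WT, against 35.2, 35, 35.6, 37.1 and 32.6 TPM in P7 WT, with overlap. Its change turned with the scale, -0.23 as deposited (adjusted p = 0.0229) and 0.33 after scaling (adjusted p = 0.00667). Relative to the median gene, the 10 genes spread from -0.86 (Cdh5) to 0.73 (Vwf).

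The cKO hearts covered the same interval with their own libraries. In P21 cKO against P7 cKO, 5 of the 10 genes were called lower and 1 higher, where 39% of all genes were called lower and 9.36% higher. After scaling 2 were lower and 3 higher, against 20.2% and 19.5% of all genes. Libraries of P21 cKO all lay below those of P7 cKO for 7 of the 10 and above for 1, as for 47.8% and 12.7% of all genes, and after scaling below for 2 and above for 4, as for 27.4% and 26.2%. Cdh5 stood at 83.2, 92.6 and 86.9 TPM in P21 cKO, against 167, 164 and 151 TPM in P7 cKO, and fell by 0.87 (SE 0.12, adjusted p = 3.39e-05), and by 0.59 after scaling (adjusted p = 9.36e-05). Pecam1 fell by 0.60 (adjusted p = 4.54e-06) and by 0.32 after scaling (adjusted p = 0.000373). Vwf stood at 41.9, 35.2 and 34.3 TPM in P21 cKO, against 22.7, 30.3 and 16.8 TPM in P7 cKO, with no overlap, and rose by 0.68 ± 0.16 (adjusted p = 0.00249), and by 0.96 after scaling (adjusted p = 0.000346). Flt1 and Emcn passed as higher after scaling (log2 changes of 0.41 and 0.34, adjusted p = 0.0124 and 0.0221) and not as deposited (0.14 and 0.07, adjusted p = 0.284 and 0.622). Kdr, at -0.46 (adjusted p = 0.127), did not pass in cKO hearts.

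**Figure D2:**
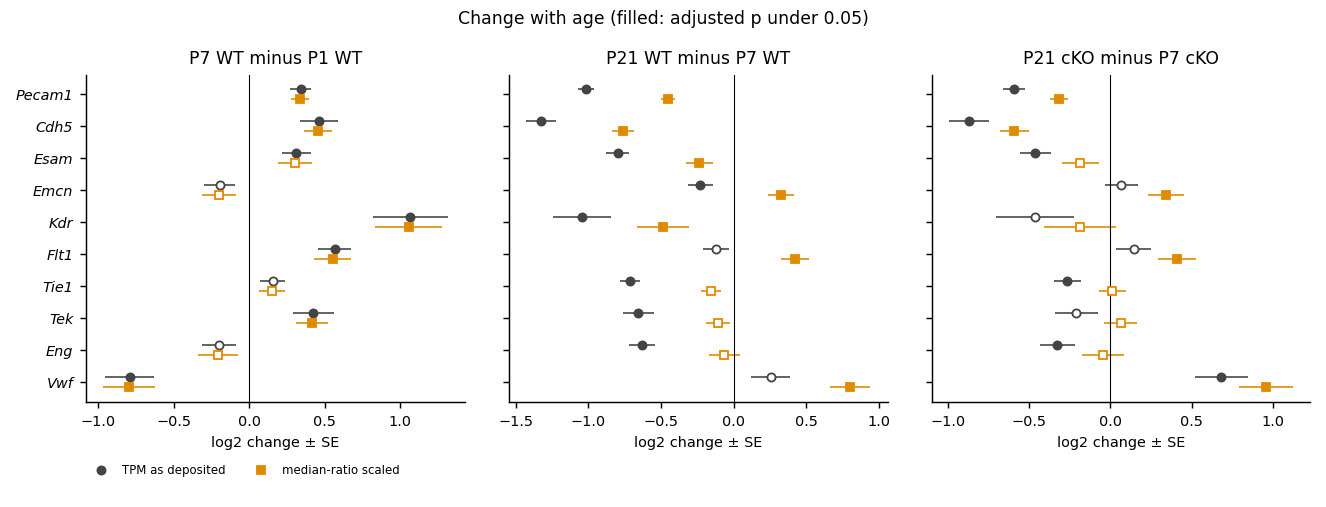
Log2 change with age of each gene (horizontal axes, points with SE from limma) for P7 WT minus P1 WT, P21 WT minus P7 WT and P21 cKO minus P7 cKO. Dark circles are TPM as deposited and orange squares median-ratio scaled values, filled where the adjusted p was under 0.05. In the first panel both scales coincide, with Kdr at 1.07 and Vwf at -0.79, and in the others scaling moves every gene to the right, to -0.76 for Cdh5 and 0.80 for Vwf in WT.

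Over the whole interval, P21 WT against P1 WT, 7 of the 10 genes were called lower and 1 higher, where 57.1% of all genes were called lower and 11% higher. The median gene moved by -0.48 in this comparison as deposited. After scaling 1 was lower and 3 higher, against 29.6% and 27.6%. Libraries of P21 WT all lay below those of P1 WT for 7 of the 10 and above for 1, as for 56.1% and 9.99% of all genes, and after scaling below for 2 and above for 1, as for 28.3% and 26.6%. Flt1 rose on both scales, by 0.44 ± 0.11 (adjusted p = 0.00184) as deposited and by 0.97 ± 0.12 (adjusted p = 6.9e-06) scaled, with every P21 WT library above every P1 WT library on both. Kdr had a log2 change of 0.02 (adjusted p = 0.94) as deposited and 0.57 (adjusted p = 0.0399) scaled, a scaled call lost in 9 of 19 alternatives (adjusted p up to 0.117). Cdh5 fell on both, by 0.87 (adjusted p = 1.7e-05) and by 0.31 (adjusted p = 0.00975). Tek, Esam, Emcn and Vwf changed sign between the scales, and of these Tek alone was called after scaling (-0.23 as deposited, 0.31 scaled with adjusted p = 0.0191, lost in 4 of 19 alternatives).

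Ratios within a library do not depend on the scaling and describe the makeup of the endothelial signal. The ratio of Flt1 to Kdr was 0.341 ± 0.0563 in P1 WT (SD, n = 3), 0.267 ± 0.00614 in P7 cKO (n = 3) and 0.269 ± 0.0206 in P7 WT (n = 5). At P21 it was 0.78, 0.297 and 0.3 in cKO libraries 55, 59 and 64, against 0.437, 0.457, 0.92 and 0.356 in WT libraries 2, 3, 57 and 60. In each genotype 1 library, 55 or 57, stood far above the others of its group, so no mean is given. The ratio of Vwf to Pecam1 was 0.345 ± 0.0373 in P1 WT, 0.196 ± 0.0535 in P7 cKO, 0.168 ± 0.0221 in P7 WT, 0.476 ± 0.0642 in P21 cKO and 0.408 ± 0.0682 in P21 WT. All P21 libraries, at 0.363 or above, lay above all P7 libraries, while the P21 genotypes overlapped. The ratio of Emcn to Pecam1 followed the same course, 0.318 ± 0.0113 in P7 cKO and 0.305 ± 0.0182 in P7 WT, against 0.506 ± 0.0162 in P21 cKO and 0.525 ± 0.0226 in P21 WT. The ratio of Cdh5 to Pecam1 was 1.36 ± 0.0532 in P7 cKO and 1.36 ± 0.0331 in P7 WT, against 1.12 ± 0.024 in P21 cKO and 1.1 ± 0.0994 in P21 WT. For both ratios every P21 library lay apart from every P7 library, while the genotypes of an age overlapped. Cdh5 made up 23.7% of the summed TPM of the 10 genes in P7 cKO and 24.1% in P7 WT, and 17% in P21 cKO and 16.9% in P21 WT.

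**Figure D3:**
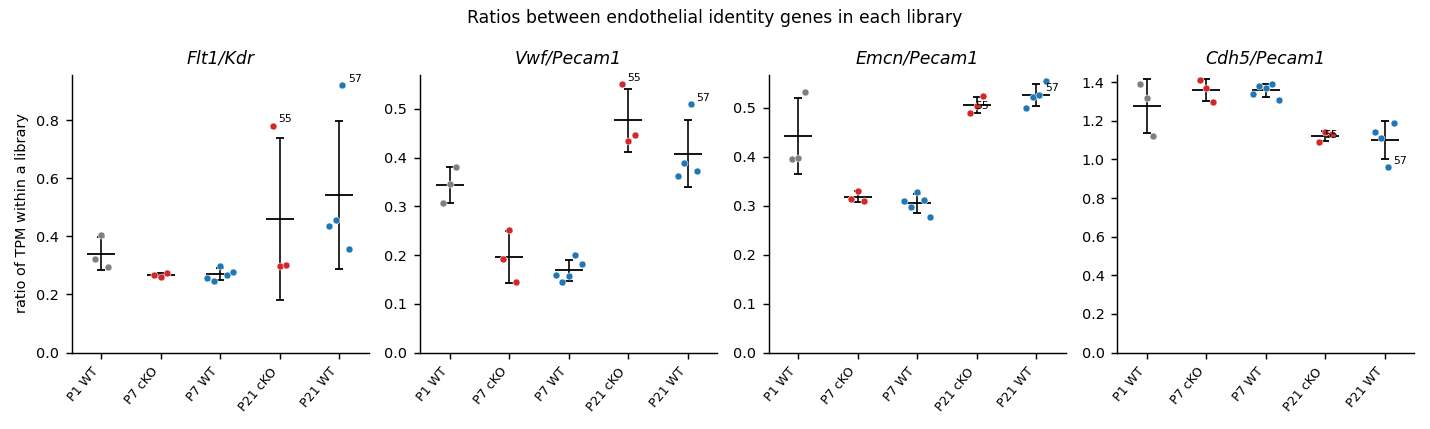
Ratios of TPM between pairs of endothelial identity genes within each library (vertical axes, from 0) by group (horizontal axis), with mean and SD as bars and libraries 55 and 57 numbered. The Flt1 to Kdr ratio stands at 0.78 in library 55 and 0.92 in library 57, while the Vwf to Pecam1 ratio lies at 0.363 or above in all P21 libraries.

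Genotype made no detected difference in these genes at P7. Of the 10, 0 were called higher or lower in P7 cKO than in P7 WT by limma, 0 had an unadjusted p under 0.05, and 0.0203% of all genes tested were called higher and 0% lower. All 10 log2 changes, which are adjusted for title style, were above 0, from 0.01 (Flt1) to 0.16 (Esam), with a median of 0.08. The cKO mean was 0.997 times the WT mean for both Kdr and Flt1. In some alternatives the changes of Flt1, Tie1, Vwf and Eng were below 0. Pecam1 stood at 119, 120.4 and 116 TPM in P7 cKO, against 114, 118, 109, 119 and 117 TPM in P7 WT, and the interval of its log2 change, 2 SE to either side, ran from -0.08 to 0.18. For Cdh5 this interval ran from -0.17 to 0.30, and for Kdr from -0.35 to 0.58. The libraries of both genotypes overlapped for all 10 genes on the deposited scale, where 1.26% of all genes had every cKO library above every WT library and 2.73% below. After scaling every P7 cKO library lay above every P7 WT library for 1 gene, Esam, and below for 0, as for 2.38% and 2.07% of all genes.

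At P21, 8 of the 10 genes were higher in cKO hearts than in WT hearts on the deposited scale, Kdr and Flt1 did not pass, and after scaling 1 passed. On the deposited scale 8 of 10 were called higher and 0 lower, where 19.5% of all genes tested were called higher and 1.77% lower, and 9 of 10 had every cKO library above every WT library, as 28.5% of all genes did, and 0 had them below, as 3.07% did. After median-ratio scaling 1 gene, Pecam1, was called higher and 0 lower, where 4% of all genes were called higher and 5.33% lower, and 6 had every cKO library above every WT library and 0 below, as 10.4% and 11.5% of all genes did. All 10 log2 changes were above 0 on both scales, with a median of 0.49 as deposited, 0.27 relative to the median gene and 0.23 scaled. Within the plain-number libraries alone, 6 were called higher as deposited and 1 after scaling. Without P21 WT library 57 the deposited-scale count was 3 (Pecam1, Tie1 and Esam), and without P21 cKO library 59 it was 5. With library 63 counted as cKO it was 1 (Pecam1), and with library 63 counted as WT it was 9.

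Pecam1 stood at 76.1, 81.4 and 76.9 TPM in P21 cKO, against 58.9, 56.5, 50.1 and 62 TPM in P21 WT. The groups did not overlap, and Pecam1 rose by 0.47 ± 0.07 on the log2 scale (SE, limma adjusted p = 0.000618), 1.37 times the WT mean, and by 0.21 ± 0.06 after scaling (adjusted p = 0.0334). The scaled call was lost on leaving out any 1 of libraries 57, 60, 55, 59 and 64 (log2 changes of 0.16 to 0.23, adjusted p = 0.0555 to 0.156). Cdh5 stood at 83.2, 92.6 and 86.9 TPM in P21 cKO, against 67.1, 62.7, 48 and 73.8 TPM in P21 WT. It rose by 0.52 ± 0.13 (adjusted p = 0.0112), and its scaled change of 0.26 did not pass (adjusted p = 0.0928). Esam stood at 62.8, 51.5 and 53.6 TPM in P21 cKO, against 38, 39, 40.9 and 40.7 TPM in P21 WT, and rose by 0.50 ± 0.10 (adjusted p = 0.0036), with a scaled change of 0.24 (adjusted p = 0.209). The junction genes were thus about 1.4 times the WT mean as deposited, at 1.39 for Cdh5 and 1.41 for Esam. Emcn rose by 0.39 ± 0.10 (adjusted p = 0.0177, scaled change 0.14 with adjusted p = 0.504).

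Of the TIE receptors, Tie1 stood at 50.6, 47.9 and 43.6 TPM in P21 cKO, against 34.9, 35.5, 30.6 and 36.4 TPM in P21 WT. It rose by 0.48 ± 0.08 (limma adjusted p = 0.00182, scaled change 0.23 with adjusted p = 0.118). Tek stood at 24.8, 25.6 and 25.1 TPM in P21 cKO, against 21.1, 20, 12.8 and 21.1 TPM in P21 WT, and rose by 0.55 ± 0.14 (adjusted p = 0.0123, scaled change 0.30 with adjusted p = 0.0839). Neither receptor's groups overlapped, and library 57 held the low Tek value of P21 WT. Of the VEGF receptors, Kdr stood at 31.1, 61.3 and 60 TPM in P21 cKO, against 37.6, 35.9, 19.2 and 44.4 TPM in P21 WT. Library 55 lay inside the WT range and the other cKO libraries above it, and the log2 change of 0.70 ± 0.25 did not pass (adjusted p = 0.0572). Without library 55 Kdr rose by 1.01 (adjusted p = 0.00703), without WT library 60 by 1.02 (adjusted p = 0.00554), and without WT library 57 its change was 0.35 (adjusted p = 0.316). Flt1 stood at 24.2, 18.2 and 18 TPM in P21 cKO, against 16.5, 16.4, 17.6 and 15.8 TPM in P21 WT, and its change of 0.27 ± 0.11 did not pass (adjusted p = 0.0782), nor did its scaled change of 0.03 (adjusted p = 0.923).

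Eng stood at 82.6, 70.9 and 64.1 TPM in P21 cKO, against 54.9, 52.9, 52.5 and 51.3 TPM in P21 WT. It rose by 0.36 ± 0.11 (limma adjusted p = 0.0348), with a scaled change of 0.10 (adjusted p = 0.7). Vwf stood at 41.9, 35.2 and 34.3 TPM in P21 cKO, against 21.4, 21.9, 25.5 and 23.1 TPM in P21 WT, the largest ratio of means among the 10, 1.62 as deposited and 1.38 scaled. It rose by 0.57 ± 0.16 (adjusted p = 0.0242), and the scaled change of 0.32 did not pass (adjusted p = 0.273), although no scaled library values overlapped. The calls of Eng and Vwf were lost without library 57 (adjusted p = 0.141 and 0.0604) and without library 55 (adjusted p = 0.114 and 0.0713), and that of Tek without library 57 (adjusted p = 0.0603).

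**Figure D4:**
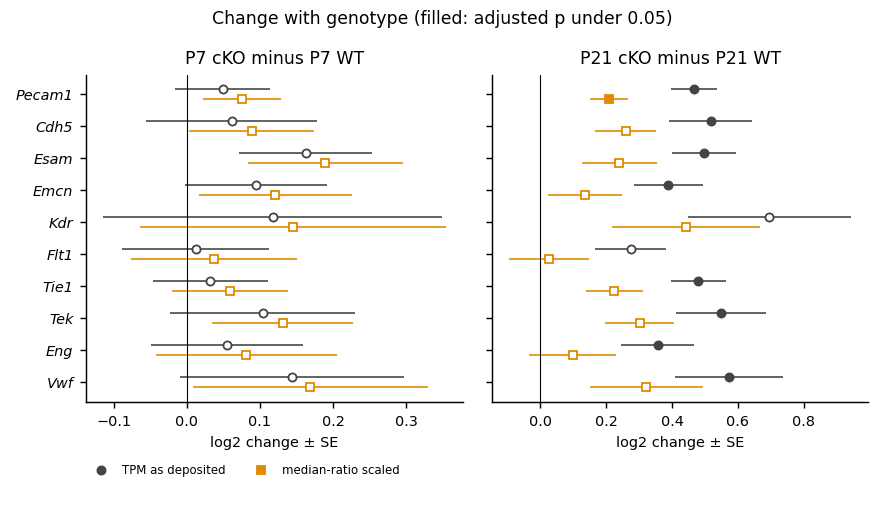
Log2 change of each gene between cKO and WT at P7 and at P21 (horizontal axes, points with SE from limma, the panels have their own ranges). Dark circles are TPM as deposited and orange squares median-ratio scaled values, filled where the adjusted p was under 0.05. At P7 no gene is filled, and at P21 8 circles and the Pecam1 square at 0.21 are.

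The effect of genotype at P21 was compared with that at P7 by an interaction contrast. As deposited, 2 of the 10 genes were called as more raised at P21, Pecam1 (difference of log2 changes 0.42 ± 0.09, limma adjusted p = 0.0143) and Tie1 (0.45 ± 0.11, adjusted p = 0.0225), where 7.04% of all genes were called in this direction and 0.52% in the other. The median gene itself differed by 0.24 in this contrast as deposited. Relative to it the differences were 0.18 for Pecam1 and 0.21 for Tie1. After scaling 0 of the 10 were called, where 0.932% of all genes were called as more raised at P21. The median difference over the 10 genes was then 0.14, against 0.42 as deposited. With the plain-number libraries alone 0 were called. The call of Tie1 was lost without P7 cKO library 75 or 82 or P21 cKO library 59 (adjusted p = 0.0503 to 0.0577), and without P21 WT library 60 the count was 6.

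Library 55 of P21 cKO and library 57 of P21 WT held extreme values of their groups in several of the same genes. As deposited, library 57 held the lowest P21 WT value of Kdr, Cdh5, Tek, Pecam1, Tie1 and Emcn and the highest of Flt1, Vwf and Esam. Library 55 held the lowest P21 cKO value of Kdr, Cdh5, Tek, Pecam1 and Emcn and the highest of Flt1, Vwf, Esam, Tie1 and Eng. After scaling library 55 held instead the highest P21 cKO value of Tek and the middle value of Cdh5 and Pecam1. Library 57 kept its places and also held the highest Eng value. In groups this small most libraries are extremes by construction, and the share of all genes with such places was not computed. The opposite places of Kdr and Flt1 give these libraries the Flt1 to Kdr ratios of 0.92 and 0.78.

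Ligands and partners of the receptors were read from lists chosen with results of these data known. Angpt1, which encodes angiopoietin 1, the activating ligand of the TEK receptor made by mural cells and cardiac muscle cells, stood at 2.52, 2.59 and 3.75 TPM in P21 cKO, against 6.97, 8.03, 8.12 and 9.84 TPM in P21 WT. The groups were far apart, and Angpt1 fell by 1.27 on the log2 scale (SE 0.16, limma adjusted p = 0.000189), and by 1.52 after scaling (adjusted p = 1.55e-05). It was thus lower in P21 cKO hearts, in which Tek was higher as deposited and did not pass after scaling (limma adjusted p = 0.0839). At P7 Angpt1 stood at 3.03, 2.2 and 2.41 TPM in cKO, against 3.2, 3.7, 3.45, 3.24 and 3.18 TPM in WT, with every cKO library below every WT library and a log2 change of -0.33 that did not pass (adjusted p = 1). As given above, 2.73% of all genes lay below in this way. The interaction, -0.94 ± 0.20, was called on both scales (adjusted p = 0.0151, scaled -1.22 with adjusted p = 0.00301). As deposited it was lost in 3 of 30 alternatives, and over all 30 it ran from -1.23 to -0.57, with adjusted p up to 0.367. Among the 3 were the plain-number libraries alone (adjusted p = 0.0637) and leaving out P7 cKO library 69 (adjusted p = 0.052). Library 63, whose labels conflict, held 9.75 TPM of Angpt1, and counted as cKO it gave a P21 change of -0.90 (adjusted p = 0.0627). With age in WT hearts Angpt1 fell by 0.63 between P1 and P7 (adjusted p = 0.00779) and rose by 1.09 between P7 and P21 (adjusted p = 1.83e-06). As deposited, Tek went the opposite way in both intervals. After scaling Tek rose by 0.42 in the first (limma adjusted p = 0.00705) and did not pass in the second (-0.11, adjusted p = 0.295). A link between these genes was not tested. Angpt2, the context-dependent ligand, averaged 1.87 ± 0.0656 TPM in P21 cKO and 1.17 ± 0.246 TPM in P21 WT, a difference that did not pass (adjusted p = 0.0941, named after its values were seen).

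Among 8 VEGF ligands and co-receptors, 3 were called higher and 0 lower in P21 cKO than in P21 WT, where 19.5% of all genes were higher, and 2 after scaling, where 4% were. Nrp1, which encodes neuropilin 1, a co-receptor of KDR, averaged 47.9 ± 6.16 TPM in P21 cKO and 30 ± 6.51 TPM in P21 WT and rose by 0.82 ± 0.17 (limma adjusted p = 0.00425, scaled 0.57 with adjusted p = 0.00764). Nrp2, its relative, averaged 17.5 ± 0.25 TPM in P21 cKO and 10.5 ± 1.6 TPM in P21 WT and rose by 0.68 ± 0.11 (adjusted p = 0.000847, scaled 0.44 with adjusted p = 0.00406). Vegfa stood at 241, 297 and 299.9 TPM in P21 cKO, against 217, 219, 219 and 218 TPM in P21 WT, and its rise of 0.38 ± 0.08 (adjusted p = 0.00461) was not called after scaling (0.12, adjusted p = 0.366). In the first week, when Kdr and Flt1 rose in WT hearts, Vegfa rose by 0.72 ± 0.08 (adjusted p = 1.87e-05), Nrp1 by 0.71 ± 0.17 (adjusted p = 0.00521) and Nrp2 by 1.13 ± 0.11 (adjusted p = 5.25e-06).

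**Figure D5:**
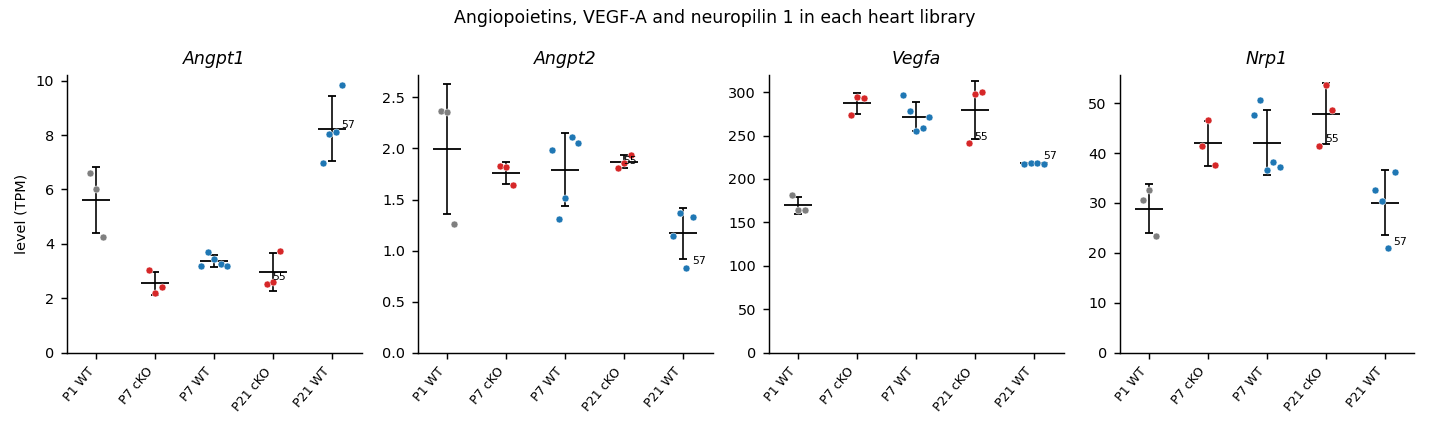
Levels (vertical axes, TPM as deposited, from 0) of Angpt1, Angpt2, Vegfa and Nrp1 in each of the 18 libraries by group (horizontal axis), with mean and SD as bars and libraries 55 and 57 numbered. Angpt1 lies between 2.52 and 3.75 TPM in P21 cKO, below all P21 WT libraries at 6.97 TPM or more.

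Other endothelial genes were read in the same way, and each count stands beside the share of all genes. Of 20 other pan-endothelial genes, 14 were called higher and 0 lower in P21 cKO than in P21 WT, where 19.5% of all genes were higher, and 5 after scaling, where 4% were, and their median relative to the median gene was 0.22, beside 0.27 for the 10. Ecscr, a modulator of endothelial migration, rose by 0.57 ± 0.09 (limma adjusted p = 0.000692, scaled 0.32 with adjusted p = 0.0402, a scaled call lost in 14 of 20 alternatives), and Nos3, the endothelial nitric oxide synthase, by 0.56 ± 0.09 (adjusted p = 0.00105, scaled 0.32 with adjusted p = 0.0225, lost in 3 of 20). In the first week 13 of these 20 rose and 1 fell in WT, where 13.8% of all genes rose and 14.7% fell. In P21 WT against P7 WT 2 rose and 16 fell, where 8.1% and 64.4% of all genes did, and after scaling 4 rose and 10 fell, where 27% and 27.4% did. Of 19 endothelial transcription factors tested, 6 were higher and 0 lower in P21 cKO, 2 after scaling, beside 19.5% and 4% of all genes. Erg, an ETS factor, averaged 18.7 ± 1.71 TPM in P21 cKO and 11.7 ± 1.95 TPM in P21 WT and rose by 0.71 ± 0.11 (adjusted p = 0.00109, scaled 0.47 with adjusted p = 0.00663). Fli1, another ETS factor, rose by 0.54 ± 0.09 (adjusted p = 0.000996, scaled 0.31 with adjusted p = 0.049, a scaled call lost in 15 of 20 alternatives).

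Of 10 junction genes tested, 7 were higher and 0 lower in P21 cKO, 1 after scaling, beside 19.5% and 4% of all genes. Cldn5, the claudin of endothelial tight junctions, rose by 0.73 ± 0.21 (limma adjusted p = 0.025), with a scaled change of 0.48 (adjusted p = 0.202), and with age it averaged 21.9 ± 3.63 TPM in P21 WT and 94.4 ± 20.2 TPM in P7 WT, a fall of 2.03 (adjusted p = 4.52e-08) that exceeded that of Cdh5. Of 12 genes of the endoglin and ALK1 pathway, 3 were higher and 0 lower in P21 cKO, 0 after scaling, near the 19.5% and 4% of all genes, and the median of this list relative to the median gene was 0.07. Acvrl1, which encodes ALK1, rose by 0.36 ± 0.12 (adjusted p = 0.0409, scaled 0.11 with adjusted p = 0.645), a call lost in 20 of 30 alternatives. Of 10 genes of Weibel-Palade bodies and coagulation, the compartment of Vwf, 4 were higher and 0 lower, 2 after scaling, beside 19.5% and 4%. Cd63, a membrane protein of Weibel-Palade bodies and of lysosomes in many cells, averaged 172 ± 4.11 TPM in P21 cKO and 83.4 ± 8.18 TPM in P21 WT and rose by 1.05 ± 0.10 (adjusted p = 1.8e-05, scaled 0.79 with adjusted p = 0.00026). Tfpi, the inhibitor of the tissue factor pathway, rose by 0.87 ± 0.12 (adjusted p = 0.000437, scaled 0.62 with adjusted p = 0.00314).

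Lists for single vascular beds gave these counts in P21 cKO against P21 WT, where 19.5% of all genes were called higher as deposited and 4% scaled. Of 12 arterial genes 5 were higher (1 after scaling), of 12 capillary genes 2 (0 after scaling), of 5 venous genes tested 3 (1 after scaling), of 9 endocardial genes 2 (1 after scaling) and of 8 lymphatic genes 0, and 0 were lower in each. The capillary and endocardial counts are near the share of all genes. Bgn, a venous list member also made by fibroblasts, rose by 0.71 ± 0.13 (limma adjusted p = 0.00253, scaled 0.45 with adjusted p = 0.00996), and Plvap, a protein of endothelial diaphragms, by 0.79 ± 0.14 (adjusted p = 0.00163, scaled 0.57 with adjusted p = 0.019). With age, 5 of the 9 endocardial genes fell and 0 rose in P7 WT against P1 WT on both scales, where 14.7% of all genes fell as deposited and 16.1% scaled. Of 12 capillary genes 6 rose and 0 fell (4 after scaling), where 13.8% of all genes rose as deposited and 14.8% scaled. In P21 WT against P7 WT all 5 venous genes fell on both scales, where 64.4% of all genes fell as deposited and 27.4% scaled. At P7, 0 members of any of these lists were called between genotypes by limma.

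Markers of other cells moved too, and their part in these results was not tested. In P21 cKO against P21 WT, 19.5% of all genes were called higher and 1.77% lower, and 4% and 5.33% after scaling. Of 10 fibroblast markers 9 were higher and 0 lower in P21 cKO than in P21 WT (5 after scaling), with a summed level of 1360 to 1570 TPM in P21 cKO and 852 to 1130 TPM in P21 WT. Of 10 mural cell markers 5 were higher and 0 lower (2 after scaling), with 849 to 1150 TPM in P21 cKO and 529 to 793 TPM in P21 WT. Of 10 cardiomyocyte markers 1 was higher (0 after scaling, with 1 lower), with 59900 to 63200 TPM in P21 cKO and 55200 to 60500 TPM in P21 WT. Of 12 leukocyte markers 0 were called as deposited and 1 lower after scaling, with 211 to 291 TPM in P21 cKO and 227 to 341 TPM in P21 WT. For Vwf, the 3 platelet and megakaryocyte markers tested of 8 gave 0 calls, and their list summed to 29.7 to 44.2 TPM in P21 cKO and 32.6 to 44.1 TPM in P21 WT. With age, in P21 WT against P7 WT, 8 of 10 fibroblast markers fell and 1 rose (5 and 2 after scaling), 6 of 10 mural markers fell and 1 rose (4 and 3), 9 of 12 leukocyte markers rose and 0 fell (11 and 0), and 4 of 10 cardiomyocyte markers rose and 4 fell (7 and 0). Of all genes tested 64.4% fell and 8.1% rose in this interval, and 27.4% and 27% after scaling. The mural count as deposited is near that share of all genes. In P7 WT against P1 WT 6 of 10 mural markers rose and 1 fell, 4 of 12 leukocyte markers rose and 0 fell, and 4 of 10 fibroblast markers rose and 1 fell. Of all genes 13.8% rose and 14.7% fell between P1 and P7. All 10 markers of dividing cells fell in P21 WT against P7 WT, to a sum of 11.3 to 14.2 TPM in P21 WT, against 267 to 369 TPM in P7 WT.

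The genes whose pattern over the 18 libraries was most like the mean log2 level of the 10 were S1pr3 (Pearson r = 0.978 on the deposited scale, 0.728 scaled), Cd9 (0.974 and 0.91), Erg (0.969 and 0.693), Tram1 (0.962 and 0.834) and Col6a1 (0.962 and 0.587), of 8846 genes whose mean reached 5 TPM. Then came Fam114a1, Git2, Sparc, Col4a1 and Cdc42ep1, at 0.954 to 0.959 as deposited and 0.457 (Sparc) to 0.752 (Git2) scaled. On scaled values the highest were Cd9 (0.91) and Ltbp4 (0.903). These values describe 18 libraries that share age, genotype and the shift of the median gene, and 246 genes reached 0.9 on the deposited scale against 2 after scaling.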

How the data were processed

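The authors deposited 1 table of TPM values per gene, a unit scaled within each library, for the series, with no counts. Per the labels' protocols, RNA was extracted from heart and made into libraries with a SMARTer mRNA kit. Per the submitters' processing notes, TopHat2 2.0.14 and Cufflinks 2.2.1 were used with the mm10 genome, and the tool behind the TPM is not given in the sources used here. The table also holds 2 columns of no sample of this series, which were not used. The depth of each library is unknown, so no counting error can be given.

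The 10 genes and all lists were chosen with earlier results of these data known. Log2(TPM + 1) was fitted with limma 3.58.1 (trend) in R 4.3.3, with 5 groups and title style as terms, over the 14812 genes that reached 1 TPM in 3 or more of the 18 libraries. P-values are two-sided and were Benjamini-Hochberg adjusted within each comparison over all 14812 genes, with a threshold of 0.05. Fold changes are on the log2(TPM + 1) scale and understate those of low genes. The fit was repeated after median-ratio scaling, with size factors from 16318 genes above 0 in all 18 libraries. The code was tested on simulated data. No 2 libraries held identical values. Genes of the lists were named from among the 4 with the smallest p of those that passed in a list and comparison (the 2 with the smallest p where none passed), except where the text says otherwise. The values of 1 junction gene are not reported here. Positions are from GENCODE M21 and promoter windows from RefSeq. Alternatives were other scalings, pseudocounts, filters and model terms, the plain-number libraries alone, library 63 in either group, and each library left out. Numbers were not taken as pairs. The deviations of same-numbered WT libraries from their groups correlated at 0.066 at most. With 2 letter-coded libraries in P7 WT and 2 in P21 WT, the deviations within each group mirror each other, so this check cannot decide on pairing.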

Additional observations from a re-analysis of the deposited data

Results flagged for a closer look

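Tek in P21 WT library 57 stood at 12.8 TPM, far from 21.1, 20 and 21.1 TPM in the other P21 WT libraries, the only such gap among 36 sets of values examined in P7 WT and P21 WT (the 10 genes and 8 ratios between them, in each group), where chance gives about 1 in 20. The genes were examined in this way on the deposited scale only. After scaling Tek stood at 18.01 in library 57 and between 25.25 and 27.04 in the other P21 WT libraries. The genotype effect at P21 exceeded that at P7 for Pecam1 by 0.42 and for Tie1 by 0.45 on the log2 scale, as deposited. Relative to the median gene these differences were 0.18 and 0.21, and after scaling neither was called. In library 63, left out for its conflicting labels, Pecam1 stood at 63.1 TPM and Eng at 55.5 TPM, above every P21 WT library. For 9 of the 10 genes library 63 lay below every P21 cKO library, and for 7 it lay within the P21 WT range, as deposited. After scaling 9 still lay below every P21 cKO library. Of the 10, 6 then lay within the P21 WT range, Eng among them, 3 below it and 1, Pecam1, above it. The share of all genes placed in this way was not computed.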

How the results depend on the processing

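The counts below are of the 10 genes. With median-ratio scaling, 1 was higher in P21 cKO than in P21 WT. It gave 3 higher and 4 lower in P21 WT against P7 WT, 3 higher and 1 lower in P21 WT against P1 WT, 3 higher and 2 lower in P21 cKO against P7 cKO, and 0 in the interaction. Quantile normalization gave 3, then 3 and 5, 2 and 1, 3 and 2, and 0 in the same order. Without mitochondrial and haemoglobin genes, P21 WT against P7 WT had 1 higher, P21 cKO against P7 cKO 3 lower and the interaction 1. The plain-number libraries alone gave 0 in the interaction. Array quality weights gave 2 lower in P7 WT against P1 WT and 7 in the interaction. With library 63 as P21 cKO, 1 was higher at P21 and 0 in the interaction, and with library 63 as P21 WT, 9 and 2. After scaling, P21 WT against P1 WT had 1 higher without the title style term, and P21 WT against P7 WT 2 lower with plain-number libraries alone.

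Leaving out 1 library gave 3 to 9 higher in P21 cKO against P21 WT, 4 to 6 higher in P7 WT against P1 WT, 0 to 1 higher and 7 to 8 lower in P21 WT against P7 WT, and 7 to 8 lower in P21 WT against P1 WT. It gave 3 to 5 lower in P21 cKO against P7 cKO and 1 to 6 in the interaction. After scaling these ranges were 0 to 2, 5 to 6, 2 to 4 lower in P21 WT against P7 WT, 1 to 3 higher in P21 WT against P1 WT, and 2 to 3 in either direction in P21 cKO against P7 cKO. A block for the replicate number changed none of these counts (8 higher in P21 cKO against P21 WT). Signs turned with scaling and quantile normalization in P21 WT against P7 WT for Flt1 (0.42 and 0.41) and Emcn (0.33 and 0.22). In P21 WT against P1 WT they turned for Tek (0.31 and 0.33), Esam (0.0686 and 0.029) and Emcn (0.123 and 0.0936), and with scaling for Vwf (0.00734), as for Tie1 in P21 cKO against P7 cKO (0.0114). Scaling removes the shift of the median gene by construction, and the other causes were not tested.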

Other observations

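Beyond the 10 genes, P21 WT library 57 and P21 cKO library 55 differed from the others of their groups in further listed genes, chosen after their values were seen and given with no test. Of 158 listed genes with a mean of at least 3 scaled TPM at P21, 18 were over 1.25 times and 8 under 0.75 times the median of the other libraries of the group in both libraries, and 2 went opposite ways. These counts were not made over all genes or for any other pair of libraries. They therefore do not show whether this pair is unusual. Aplnr, the apelin receptor, stood at 15.7 TPM in library 55, against 45 and 38.8 TPM in the other P21 cKO libraries, and at 8.84 TPM in library 57, against 23.9, 22.3 and 29.5 TPM in the other P21 WT libraries. Rgcc, a cell cycle regulator found in capillary endothelium, stood at 83.3 TPM in library 55, against 43.4 and 44.2 TPM in the other cKO libraries, and at 83.2 TPM in library 57, against 45.9, 44.7 and 39.3 TPM in the other WT libraries. Klf2, a flow-responsive transcription factor, stood at 68.8 TPM in library 55, against 27.7 and 36.2 TPM, and at 41.3 TPM in library 57, against 29.6, 31.6 and 31.7 TPM. Kdr was among the 8 lower genes and Vwf among the 18 higher ones. Red cell genes were also among the higher ones (Alas2, Hba-a1, Hba-a2, Hbb-bs and Hbb-bt, at 1.79 to 2.02 times in library 55 and 1.28 to 1.53 times in library 57), and the leukocyte marker Cx3cr1 was among the lower ones (0.268 and 0.396 times). Ddx3y, a Y-linked gene, stood at 20.3 TPM in library 55, against 0.03 and 0 TPM in the other P21 cKO libraries, and at 15.8 TPM in library 57, against 17.8, 0 and 0 TPM in P21 WT libraries 2, 3 and 60. Its part in the pattern was not tested.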
